A study of Mus musculus with 18 samples.

Results

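Transcripts of the dual-specificity MAP kinase phosphatases (the Dusp genes) were followed in mouse bone marrow-derived dendritic cells for up to 24 h after lipopolysaccharide (LPS), a component of the outer membrane of bacteria that signals through the receptor TLR4. The genes considered were Dusp1, Dusp2, Dusp4, Dusp5, Dusp6, Dusp10, Dusp14 and Dusp16, 8 of the family. A gene was read from the probe set annotated to it alone, and from the one with the highest mean where there were several. Of the 8 genes, 6 had such a probe set, among 12394 genes read in this way. None was found for Dusp4 and Dusp5, which are not analysed here. Dusp10 had another, dimmer probe set, which served as a check.

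The series held 18 Affymetrix arrays in 3 conditions, each with 1 array without LPS and 1 array after 2, 4, 6, 12 and 24 h of LPS. The conditions were wild type C57BL/6 cells with smooth LPS at 1 µg/ml, the same cells with LPS at 1 µg/ml and 2 mM EGTA, a chelator of calcium outside the cell, and cells of Cd14-/- C57BL/6 mice, for which the labels state smooth LPS and no concentration. All donors were 6 to 8 weeks old, and marrow was grown for 7 to 10 days in medium with 10% supernatant of B16 tumour cells carrying a GM-CSF gene, then used when more than 90% of the cells carried CD11c. The design text sets the pair of inhibited conditions against wild type to single out effects of calcium flux, and NFAT, a transcription factor that calcium activates, is named in the title. Cells without LPS were collected 24 h after plating, while no time between plating and LPS is given, so an effect of LPS and of time since plating cannot be told apart. The unstimulated EGTA array carries EGTA in its title, whereas its protocol mentions plating alone. No label names separate cultures or animals, so that p-values reflect the spread between single arrays alone. That spread may be technical, and its precision is limited by how few arrays there are.

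MAP kinases are switched on by phosphorylation of a threonine and a tyrosine in the same loop, and dual-specificity phosphatases switch them off by removing both phosphates. Dusp1, Dusp2, Dusp4 and Dusp5 encode nuclear enzymes whose genes are themselves induced by MAP kinase signalling, Dusp6 encodes a cytoplasmic enzyme selective for ERK, Dusp10 and Dusp16 encode enzymes that prefer JNK and p38, and Dusp14 encodes a small enzyme without the kinase-binding domain of the others. In macrophages and dendritic cells DUSP1 is known as a brake on p38 and JNK after LPS, and its loss leads to excess inflammatory cytokines. Transcription of Dusp6 is a common readout of ERK activity.

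Promoter sequences were taken from RefSeq (GRCm38.p6) and are shown for the genes whose transcripts fell at 2 h of LPS, Dusp1 and Dusp6, and for those that rose most, Dusp2 and Dusp14. Each window runs from 250 bases before to 50 bases after the transcription start, 5′ to 3′ on the strand of the gene. Capitals mark matches, on either strand, to the cyclic AMP response element (CRE) TGACGTCA, its shorter core TGACG, the E box CACGTG and the NFAT core GGAAA. The windows lie at chr17:26508423-26508722 on the minus strand for Dusp1, chr2:127335909-127336208 on the plus strand for Dusp2, chr10:99262981-99263280 on the plus strand for Dusp6 and chr11:84068308-84068607 on the minus strand for Dusp14.
Dusp1: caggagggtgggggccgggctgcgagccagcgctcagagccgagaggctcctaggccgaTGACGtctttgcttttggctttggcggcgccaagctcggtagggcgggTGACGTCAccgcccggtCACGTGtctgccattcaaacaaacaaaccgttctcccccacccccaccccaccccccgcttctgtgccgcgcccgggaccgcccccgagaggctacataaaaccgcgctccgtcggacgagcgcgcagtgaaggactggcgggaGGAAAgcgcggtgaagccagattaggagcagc
Dusp2: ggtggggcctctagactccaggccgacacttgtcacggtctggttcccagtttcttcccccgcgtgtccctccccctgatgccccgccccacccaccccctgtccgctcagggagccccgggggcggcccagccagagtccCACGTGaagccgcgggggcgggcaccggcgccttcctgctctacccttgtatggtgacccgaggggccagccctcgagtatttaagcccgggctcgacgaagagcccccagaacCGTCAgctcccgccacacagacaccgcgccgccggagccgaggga
Dusp6: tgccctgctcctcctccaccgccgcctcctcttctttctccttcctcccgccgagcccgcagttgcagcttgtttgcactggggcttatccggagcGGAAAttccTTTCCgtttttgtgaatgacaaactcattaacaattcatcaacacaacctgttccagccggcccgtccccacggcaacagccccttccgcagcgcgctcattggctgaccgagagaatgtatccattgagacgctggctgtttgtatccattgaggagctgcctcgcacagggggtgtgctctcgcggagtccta
Dusp14: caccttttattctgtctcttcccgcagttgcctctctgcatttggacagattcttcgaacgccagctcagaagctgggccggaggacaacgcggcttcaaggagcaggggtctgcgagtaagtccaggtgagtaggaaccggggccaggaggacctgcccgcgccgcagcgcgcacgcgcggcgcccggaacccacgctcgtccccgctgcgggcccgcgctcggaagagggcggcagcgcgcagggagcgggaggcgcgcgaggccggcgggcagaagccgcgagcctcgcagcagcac

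The Dusp1 window held the whole CRE at -143 to -136, counted from the start site, and this element contains the shorter core on both strands. The core also occurred by itself in Dusp1 at -191 to -187 and, on the other strand, in Dusp2 at 6 to 10. A whole CRE was present in 1.79% of the 32851 windows of the table, and the core in 20.8%. Dusp1 and Dusp2 each held an E box, at -126 to -121 and at -109 to -104, against 7.15% of all windows. The NFAT core occurred in Dusp1 at 19 to 23 and on both strands of Dusp6, starting at -154 and -145, but it is short and was present in 61.3% of all windows. The Dusp14 window matched none of these 4 motifs. Windows were at hand for 7 of the 8 genes. Of these, none held the AP-1 site TGANTCA (7.81% of all windows), the TATA box TATAAA (13.6%) or the kappa B site (5.8%), and only that of Dusp5 held the CArG box (1.63%). A match is a run of letters and was not measured as a binding site.

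Levels below are log2(intensity + 16) after quantile normalisation, 1 array per value, and changes are differences on that scale, which understates the change of dim genes. A gene passed the test when its p-value from limma, adjusted by the Benjamini-Hochberg method over all genes tested, was under 0.05. Errors written with ± are standard errors of the fit. Cd14 followed the labels, with a difference between Cd14-/- and wild type cells under LPS of -8.21 ± 0.24. The unstimulated EGTA array stood apart, with an intensity of 3.63 at its 1st percentile against at most 0.939 on the others. Its median correlation with other arrays was the lowest (0.927), but the unstimulated Cd14-/- (0.936) and wild type (0.940) arrays were close to it. RNA integrity numbers were 8.8 and 8.7 for the EGTA arrays at 12 and 24 h and 9.3 to 10 elsewhere. The dendritic cell gene Itgax, which encodes CD11c, was above the median on all 18 arrays, while all 6 T and NK cell markers on the array were below it everywhere. On at least 2 arrays, 10 of 11 dendritic cell markers were above it, but so were 9 of 10 macrophage markers and all 10 granulocyte markers. Scaling mattered for changes from unstimulated cells: at 2 h the median over all genes was -0.09 after quantile normalisation, 0.11 after median centring and -0.32 without scaling, and 39.6%, 70.3% and 17.4% of the genes past the test were higher. Over the mean of the LPS times this share was 44%, 61.7% and 19.9% under the same 3 scalings. Under them it was 54.3%, 56.6% and 72% between EGTA and wild type cells, 57.5%, 43.5% and 22.1% between Cd14-/- and wild type cells, and 53.8%, 37.2% and 12.1% between Cd14-/- and EGTA cells. No Dusp gene that passed in these comparisons of conditions changed direction or lost its call with the scaling. In bulk RNA, fewer cells of a type and less RNA per cell cannot be told apart.

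**Figure D1:**
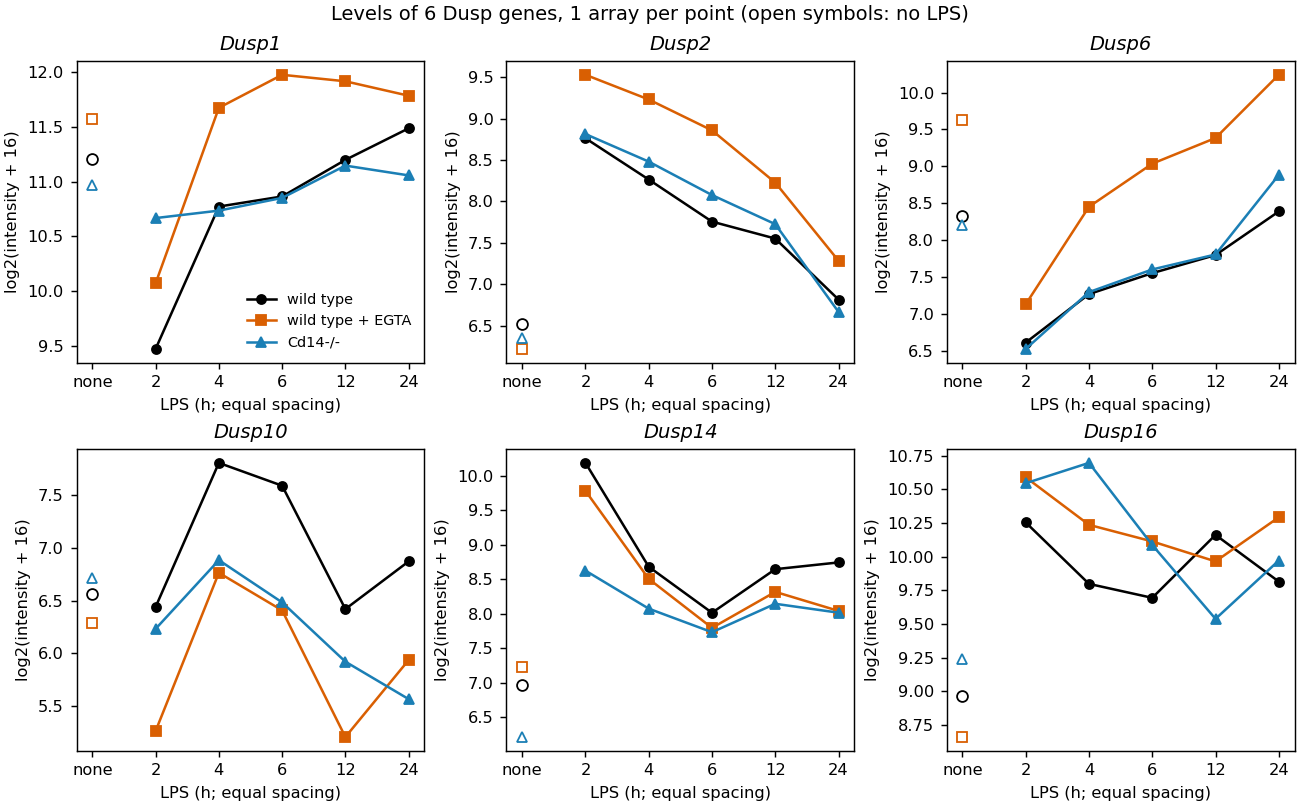
Log2 levels (log2(intensity + 16), quantile-normalised) of 6 Dusp genes without LPS (open symbols) and after 2 to 24 h of LPS (equal spacing), 1 array per point, in wild type cells (black circles), with EGTA (orange squares) and in Cd14-/- cells (blue triangles). Dusp2 and Dusp14 peak at 2 h and Dusp6 is lowest at 2 h in all 3 conditions, and the EGTA squares lie above wild type at each LPS time for Dusp1, Dusp2 and Dusp6.

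After LPS these genes moved in opposite directions. The changes tested against unstimulated cells, and the steps between times, are averages over the 3 conditions. At 2 h, 5 of the 6 measured genes passed the test, where 41.3% of the 7056 genes tested did (16.4% higher and 25% lower). Dusp2, Dusp14 and Dusp16 rose and Dusp1 and Dusp6 fell. Over the mean of the 5 LPS times 4 of 6 passed, against 62% of all genes (27.3% higher and 34.7% lower), with Dusp2, Dusp14 and Dusp16 higher and Dusp6 lower. At the single times, 5 of 6 passed at 4 h (60.8% of all genes), 4 at 6 h (60%), 4 at 12 h (56.6%) and 3 at 24 h (52.2%), so from 6 h on the share of members was near that of all genes. The counts at 4 and 12 h include Dusp10, which met the filter through 2 wild type arrays alone, as described with its levels. All of the counts include Dusp2 and Dusp14, which met the filter through LPS arrays, as described with theirs. The median change of the 6 genes over the 5 times was 0.51, and that of all genes tested was -0.05. Over the same mean all 10 tested granulocyte markers fell, 5 of 9 macrophage markers fell and 2 rose, and 4 of 10 dendritic cell markers fell and 2 rose, and their part in the Dusp changes was not tested.

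Among the nuclear enzymes, Dusp1 was one of the brighter probe sets and was lower at 2 h, the first LPS time. No array was taken sooner after LPS, so an earlier rise or fall would not be seen. In wild type cells its level was 11.20 without LPS and 9.47, 10.77, 10.86, 11.20 and 11.49 after 2, 4, 6, 12 and 24 h. With EGTA it was 11.57 without LPS and 10.07, 11.67, 11.98, 11.92 and 11.78 after LPS, and in Cd14-/- cells it was 10.97 and then 10.67, 10.73, 10.85, 11.15 and 11.06. The 2 h array was the lowest of its condition in all 3 conditions, by far in both wild type series and by little in Cd14-/- cells. In intensity, wild type Dusp1 went from 2592.7 to 749.4 at 2 h, and Cd14-/- Dusp1 from 2308.9 to 1566.2. The change at 2 h was -1.18 ± 0.25 (limma, adjusted p = 0.0016, lower in 3 of 3 conditions). At 4, 6, 12 and 24 h the changes ran from -0.19 to 0.20, and none passed. The mean over 5 times was -0.20 ± 0.19 (adjusted p = 0.377), and without the Cd14-/- array at 2 h it was -0.30 (adjusted p = 0.015). From 2 to 4 h Dusp1 rose by 0.99 ± 0.25 (adjusted p = 0.0056), and from 2 to 24 h by 1.37 ± 0.25 (adjusted p = 3.24e-04). Without the EGTA arrays the step from 2 to 4 h was 0.69 (adjusted p = 0.119).

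Dusp2 encodes PAC-1, a phosphatase of activated leukocytes. Its wild type level was 6.52 without LPS and 8.76, 8.26, 7.76, 7.55 and 6.82 after 2 to 24 h. With EGTA it was 6.22 and then 9.53, 9.23, 8.86, 8.23 and 7.28, and in Cd14-/- cells 6.36 and then 8.81, 8.48, 8.08, 7.73 and 6.67. Each condition had its highest level at 2 h, a lower one at every later time, and all 15 LPS arrays above the unstimulated array of their condition. Dusp2 was above the array median on 13 arrays, all with LPS, and on no unstimulated array. It thus met the filter through LPS arrays alone. Its tests against unstimulated cells, and the later test of its rise between conditions, draw on the arrays that admitted it. The change at 2 h was 2.67 ± 0.19 (adjusted p = 4.27e-08), or 6.35-fold on this scale, and the mean over 5 times was 1.77 ± 0.15 (adjusted p = 7.36e-08). By 24 h it had shrunk to 0.56 ± 0.19 (adjusted p = 0.0232). This last call was lost without the wild type array at 24 h (0.48, adjusted p = 0.090) and without the unstimulated EGTA array (0.24, adjusted p = 0.154), as well as without either inhibited condition. The fall from 2 to 24 h was -2.11 ± 0.19 (adjusted p = 4.57e-07).

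Dusp6, the cytoplasmic ERK phosphatase, had the opposite course. In wild type cells it was at 8.33 without LPS and at 6.61, 7.27, 7.55, 7.80 and 8.39 after 2 to 24 h. With EGTA it was at 9.62 and then 7.13, 8.45, 9.04, 9.38 and 10.24, and in Cd14-/- cells at 8.20 and then 6.52, 7.29, 7.60, 7.80 and 8.88. In every condition the level was lowest at 2 h and higher at each later time, and only the 24 h arrays lay above the unstimulated ones. The change was -1.96 ± 0.18 at 2 h (adjusted p = 7.97e-07), -1.05 ± 0.18 at 4 h (adjusted p = 1.55e-04), -0.66 ± 0.18 at 6 h (adjusted p = 0.00602) and -0.39 ± 0.18 at 12 h (adjusted p = 0.0826). Without the EGTA array at 2 h the change at 12 h passed (adjusted p = 0.0162). At 24 h it was 0.45 ± 0.18 (adjusted p = 0.0507), and it passed without the wild type array at 24 h (0.65, adjusted p = 0.0116), the wild type array at 2 h (adjusted p = 0.034) or the EGTA array at 2 h (adjusted p = 0.00778). The rise from 2 to 24 h was 2.42 ± 0.18 (adjusted p = 8.87e-08), or 5.34-fold.

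Dusp14, the small atypical enzyme, rose at 2 h about as far as Dusp2 and then kept part of its rise. Its wild type level was 6.97 without LPS and 10.19, 8.68, 8.02, 8.65 and 8.74 after 2 to 24 h. With EGTA it was 7.23 and then 9.78, 8.51, 7.80, 8.32 and 8.04, and in Cd14-/- cells 6.21 and then 8.63, 8.08, 7.73, 8.15 and 8.02. All 15 LPS arrays lay above the unstimulated array of their condition, the highest value was at 2 h and the lowest LPS value at 6 h in each of them. Dusp14 was above the array median on 16 arrays, the 15 with LPS and the unstimulated EGTA array. It thus met the filter through LPS arrays, and its tests against unstimulated cells draw on the arrays that admitted it. The change was 2.73 ± 0.21 at 2 h (adjusted p = 1.08e-07) and 1.04 ± 0.21 at 6 h (adjusted p = 5.68e-04), and at 24 h it was still 1.46 ± 0.21 (adjusted p = 3.6e-05). The fall from 2 to 4 h was -1.11 ± 0.21 (adjusted p = 8.43e-04), and from 2 to 24 h it was -1.26 ± 0.21 (adjusted p = 1.67e-04).

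Of the enzymes that prefer JNK and p38, Dusp16 rose and Dusp10 was close to background. Wild type Dusp16 was at 8.97 without LPS and at 10.25, 9.80, 9.69, 10.16 and 9.82 after 2 to 24 h. With EGTA it was at 8.66 and then 10.59, 10.24, 10.11, 9.97 and 10.29, and in Cd14-/- cells at 9.24 and then 10.55, 10.70, 10.09, 9.54 and 9.97. Every LPS array exceeded the unstimulated array of its condition, and the 5 LPS levels of wild type cells differed by at most 0.56. The change was 1.51 ± 0.21 at 2 h (adjusted p = 4.46e-05) and 1.07 ± 0.21 at 24 h (adjusted p = 5.08e-04), with changes between 0.93 and 1.29 at the times between. No step between neighbouring times passed. From 2 to 24 h Dusp16 differed by -0.44 ± 0.21 (adjusted p = 0.0905), which passed without the Cd14-/- array at 12 h (adjusted p = 0.0467).

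Dusp10 had intensities from 20.3 to 178.2. Only 2 arrays had it above their median, those of wild type cells at 4 and 6 h, and it entered the tests through these, so its tests against wild type, and those of 4 or 6 h against any other time, draw on the arrays that admitted it and support nothing by themselves. Its level was 6.57 without LPS and 6.44, 7.80, 7.59, 6.42 and 6.87 after 2 to 24 h in wild type cells. With EGTA it was 6.29 and then 5.27, 6.76, 6.41, 5.21 and 5.94, and in Cd14-/- cells 6.72 and then 6.23, 6.88, 6.48, 5.92 and 5.57. The 4 h array was the highest LPS array in each condition. The difference of 4 h from 2 h was 1.17, and that of 4 h from unstimulated cells 0.63 (adjusted p = 0.0496), the latter lost when any of 10 arrays was left out (0.33 to 0.72, adjusted p up to 0.298). With the other probe set, which was above the median on no array and ranged in intensity from 3.3 to 48.9, the difference of 4 h from 2 h was -0.21 and that of 4 h from unstimulated cells -0.02. Without the wild type array at 4 or at 6 h Dusp10 was not tested. At 12 h it was lower than in unstimulated cells by 0.67 ± 0.26 (adjusted p = 0.0388), lost without the array of wild type or EGTA cells at 12 h or the unstimulated array of EGTA or Cd14-/- cells, and with the other probe set (-0.06, adjusted p = 0.912).

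**Figure D2:**
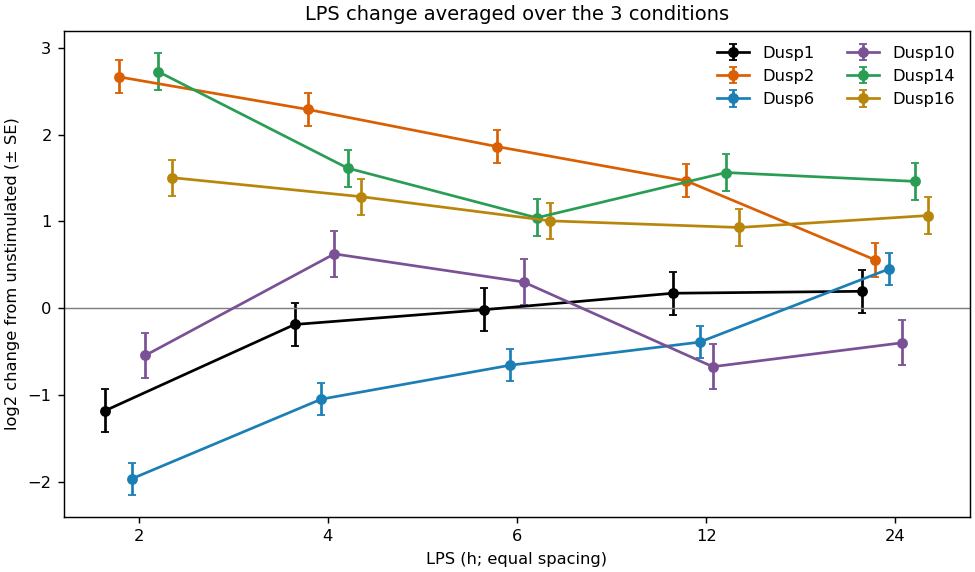
Log2 change from unstimulated cells at each LPS time (equal spacing), averaged over the 3 conditions, with standard errors of the limma fit, for 6 Dusp genes. Dusp2 (2.67) and Dusp14 (2.73) start highest at 2 h and Dusp6 lowest (-1.96), Dusp2 and Dusp6 approach each other by 24 h (0.56 and 0.45), and Dusp14 and Dusp16 remain above 0.9 at every time.

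Between neighbouring times, members passed at both the first and the last step. From 2 to 4 h, 4 of the 6 genes passed, against 39.3% of all genes: Dusp1 and Dusp6 rose, Dusp14 fell, and Dusp10, admitted to the tests through its wild type arrays at 4 and 6 h, was higher (-0.21 with its other probe set). From 4 to 6 h 0 of the 6 passed in limma, where 0.524% of all genes did, and 3 of the 6 had an unadjusted p under 0.05. From 6 to 12 h 1 of the 6 passed, against 12.4% of all genes. It was Dusp10 (-0.98), for which 6 h is among the times that admitted it, so that its test supports nothing here, and the call was lost with its other probe set and without the wild type array at 12 h or the EGTA arrays at 6 or 12 h (adjusted p = 0.0686, 0.0732 and 0.105). Dusp2 passed there without the unstimulated EGTA array, and Dusp14 without the Cd14-/- array at 2 h. From 12 to 24 h, 2 of 6 passed, against 15.4% of all genes: Dusp2 fell by 0.91 ± 0.19 (adjusted p = 0.00573) and Dusp6 rose by 0.84 ± 0.18 (adjusted p = 0.00702). Both were lost when the Cd14-/- arrays were left out (adjusted p = 0.0853 and 0.101). From 2 to 24 h, 4 of 6 passed, against 52.7%. These steps were fitted with the condition as a block, and Dusp2 between 2 and 4 h, at -0.38 (adjusted p = 0.131), passed without the unstimulated EGTA array (adjusted p = 0.019).

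Under LPS, 3 of the phosphatase transcripts were higher with EGTA. In 1 fit over the 15 LPS arrays with LPS time as a block, 4 of the 6 genes passed, where 13.6% of the 6929 genes tested did (7.39% higher and 6.22% lower). Dusp6, Dusp2 and Dusp1 were higher, and Dusp10, which entered the tests through 2 wild type arrays, was lower. Dusp6 showed the largest difference, 0.52, 1.18, 1.48, 1.59 and 1.85 at 2, 4, 6, 12 and 24 h. It was higher with EGTA at 5 of 5 times, by 1.33 ± 0.15 (limma, adjusted p = 1.6e-04), or 2.51-fold, with a 95% interval from 1.00 to 1.65. The EGTA and wild type levels overlapped when times were mixed (7.13 to 10.24 against 6.61 to 8.39), and only the pairing by time separated them. With LPS time left out of the fit, 0 of the 6 genes passed in any of the 3 comparisons of conditions (adjusted p at least 0.253). Without LPS, Dusp6 was also higher on the array named for EGTA, at 9.62 against 8.33, a difference of 1.29 that no replicate checks.

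Dusp2 was higher with EGTA by 0.77, 0.97, 1.10, 0.67 and 0.47 at 2 to 24 h. The mean difference was 0.79 ± 0.09 (adjusted p = 1.19e-04, 5 of 5 times), or 1.74-fold. Without LPS it was not higher: 6.22 with EGTA against 6.52, or intensities of 88.9 and 88.7. The rise from the unstimulated array was 3.31 at 2 h with EGTA, 2.24 in wild type and 2.45 in Cd14-/- cells. The difference between the rises of EGTA and wild type cells, tested itself as an interaction over the 5 times, was 1.10 ± 0.22 (limma, adjusted p = 0.03), and Dusp2 was the only one of the 6 to pass, where 1.66% of 7056 genes did. This test rests on the unstimulated EGTA array, which stood apart, and it did not pass without scaling (0.91, adjusted p = 0.216) or with 64 added to the intensity in place of 16 (0.88, adjusted p = 0.0547).

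Dusp1 was higher with EGTA by 0.60, 0.90, 1.11, 0.72 and 0.30 at 2 to 24 h, with a mean of 0.73 ± 0.20 (adjusted p = 0.0327, 5 of 5 times). The call depended on single arrays. It was lost without the wild type array at 2, 4, 6 or 12 h or the EGTA array at 4, 6, 12 or 24 h, with values from 0.61 to 0.76 and adjusted p up to 0.109. Over 2 to 6 h alone, without the 12 and 24 h EGTA arrays of lower RNA integrity, Dusp1 differed by 0.87 (adjusted p = 0.108), whereas Dusp6 and Dusp2 still passed (1.06 with adjusted p = 0.0118, and 0.94 with adjusted p = 0.00158).

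Dusp14 and Dusp16 did not pass with EGTA. Dusp14 was lower by 0.41, 0.18, 0.22, 0.33 and 0.70 at 2 to 24 h, a mean of -0.37 ± 0.15 (adjusted p = 0.139) with a 95% interval from -0.70 to -0.03, and it passed without the Cd14-/- array at 2 h (adjusted p = 0.0119). Dusp16 was higher at 4 of 5 times, with a mean of 0.29 ± 0.15 (adjusted p = 0.225) and an interval from -0.03 to 0.62, and it passed without the wild type array at 12 h (0.46, adjusted p = 0.0384). Dusp10 was lower by 0.93 to 1.21 at 5 of 5 times (-1.11 ± 0.18, adjusted p = 0.00159). It was admitted through its wild type arrays, so this test draws on the values that admitted it and supports nothing by itself. That difference was -0.50 with the other probe set, fitted with no filter, and did not pass (adjusted p = 0.22). Beside these values, 3 of 9 tested macrophage markers were higher with EGTA, 0 of 10 granulocyte markers passed in limma (1 had an unadjusted p under 0.05), and 2 of 4 mast cell and basophil markers were lower. Of the dendritic cell markers tested, only Ciita passed, and it was higher (0.31 ± 0.09). The part of all these markers in the Dusp differences was not tested.

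**Figure D3:**
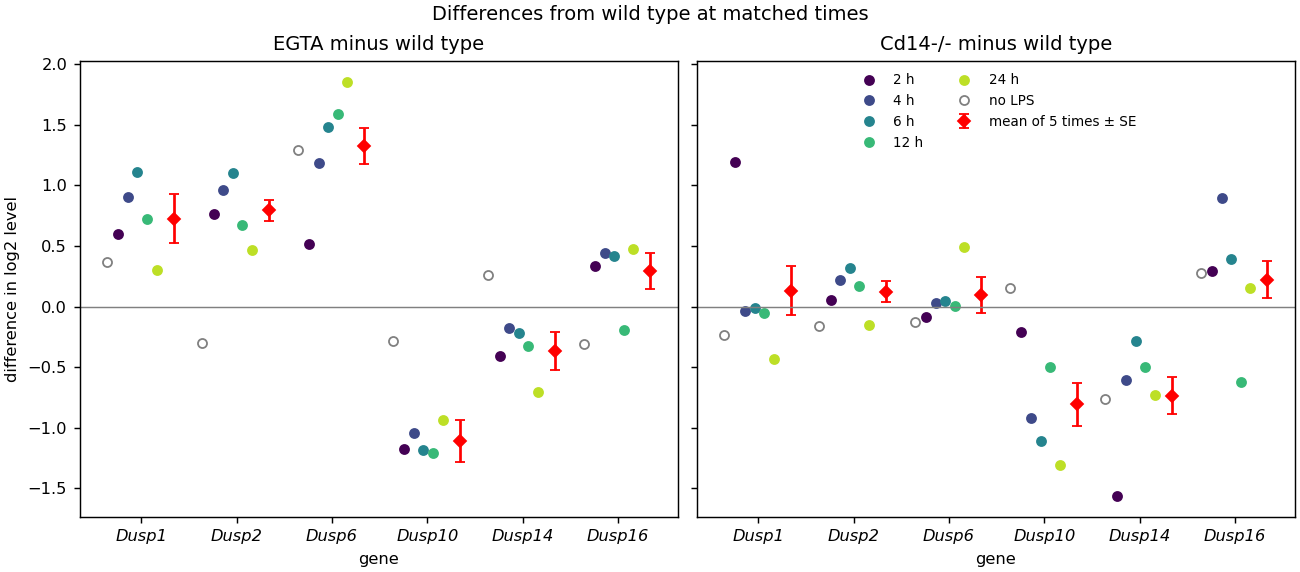
Differences in log2 level from wild type at matched times for EGTA (left) and Cd14-/- cells (right), 1 pair of arrays per circle, coloured by LPS time, with open circles for no LPS and red diamonds for the mean of the 5 LPS times with its standard error. With EGTA the 5 circles of Dusp1, Dusp2 and Dusp6 lie above 0 (means 0.73, 0.79 and 1.33), and in Cd14-/- cells those of Dusp14 lie below it (mean -0.74) while the means of Dusp1, Dusp2 and Dusp6 are 0.13, 0.12 and 0.10.

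Cells without CD14 differed from wild type in Dusp14. Of the 6 genes, 2 passed, both lower, where 29.7% of the 6929 genes tested did (17.1% higher and 12.6% lower). Counted in both directions together, the share of members was near that of all genes. Dusp14 was lower by 1.56, 0.61, 0.28, 0.50 and 0.73 at 2 to 24 h, a mean of -0.74 ± 0.15 (limma, adjusted p = 0.00347, 5 of 5 times), or 1.67-fold. It was also lower by 0.76 without LPS, 6.21 against 6.97, and its rise over the 5 times did not differ detectably from that of wild type (0.02 ± 0.38, 95% interval from -0.79 to 0.84, adjusted p = 0.993). The gap at 2 h, 8.63 against 10.19, or intensities of 367.6 and 1277.1, was the widest. The other gene was Dusp10, admitted through its wild type arrays and lower by 0.21 to 1.30 at 5 of 5 times (-0.81 ± 0.18, adjusted p = 0.00466), and with its other probe set the difference was -0.44 (adjusted p = 0.205).

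Dusp1, Dusp2 and Dusp6, the genes that were higher with EGTA, did not pass in Cd14-/- cells. Their mean differences from wild type were 0.13 ± 0.20, 0.12 ± 0.09 and 0.10 ± 0.15, with 95% intervals from -0.31 to 0.57, -0.06 to 0.31 and -0.22 to 0.42 (adjusted p = 0.663, 0.311 and 0.66). For Dusp1 the mean hid a gap at 2 h, where Cd14-/- cells were at 10.67 and wild type cells at 9.47, a difference of 1.20, while at the other times it ran from -0.43 to -0.01. The contrast of early (2, 4 and 6 h) with late (12 and 24 h) differences did not pass for Dusp1 (0.62 ± 0.40, adjusted p = 0.552), nor in limma for any other of the 6 genes (1 had an unadjusted p under 0.05), where 0.0433% of all genes passed. Dusp16 was higher by 0.22 ± 0.15 (adjusted p = 0.293), from 0.90 at 4 h to -0.62 at 12 h, and passed without the wild type array at 12 h (0.39, adjusted p = 0.0368) or over 2 to 6 h alone (0.53, adjusted p = 0.0127). Its early minus late contrast was 0.76 ± 0.23 (adjusted p = 0.197).

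Markers of other cells moved between these genotypes. Of the macrophage markers 6 of 9 were lower and 1 was higher in Cd14-/- cells, and Apoe fell by 1.65. Of the granulocyte markers 5 of 10 were higher and 1 lower, 7 of 10 dendritic cell markers were higher, and 3 of 4 mast cell and basophil markers were lower. The summed intensity of the 10 macrophage markers on the array was 8846 to 20209 on the Cd14-/- LPS arrays, 13962 to 26061 in wild type and 17437 to 24114 with EGTA, and that of the granulocyte markers was 14046 to 34060, 8123 to 36255 and 9904 to 37584. Cd163 was above the median on no array. Their part in the differences of the Dusp genes was not tested.

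The inhibited conditions differed from each other. Of the 6 genes, 3 passed between Cd14-/- and EGTA cells, all lower without CD14, where 31.3% of all genes passed (16.8% higher and 14.4% lower). Dusp6 was lower by 1.23 ± 0.15 (limma, adjusted p = 7.23e-05) and Dusp2 by 0.67 ± 0.09 (adjusted p = 1.1e-04), both at 5 of 5 times. Dusp1 was lower at 4 of 5 times (-0.59 ± 0.20, adjusted p = 0.0412), and at 2 h it was higher by 0.60. That call was lost when any of 11 arrays was left out, namely wild type at 4, 6 and 12 h and those of EGTA and of Cd14-/- cells at 4, 6, 12 and 24 h, with values from -0.63 to -0.48 and adjusted p up to 0.128. Dusp14 differed by -0.37 ± 0.15 (adjusted p = 0.0852), Dusp10 by 0.30 ± 0.18 (adjusted p = 0.218) and Dusp16 by -0.07 ± 0.15 (adjusted p = 0.752). In the same comparison 6 of 9 macrophage markers were lower and 1 higher without CD14, 7 of 10 granulocyte markers were higher and 1 lower, 2 of 4 mast cell and basophil markers were lower and 1 higher, and 2 of 10 dendritic cell markers were higher. Their part in the Dusp differences was not tested. These 3 comparisons share their arrays, so that their values are not independent of each other.

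The early against late contrast for EGTA passed in limma for 0 of the 6929 genes tested (0% of all genes), although 819 had an unadjusted p under 0.05. Its values were 0.37 ± 0.15 for Dusp2 (adjusted p = 0.349) and -0.66 ± 0.26 for Dusp6 (adjusted p = 0.337), with unadjusted p-values of 0.0291 and 0.0263. In Cd14-/- cells the difference in induction passed in limma for 0 of the 6 genes, where 0.156% of all genes passed. Dusp10 alone had an unadjusted p under 0.05, at -0.96 ± 0.43 (adjusted p = 0.578). Because Dusp10 entered the tests through wild type LPS arrays alone, this value draws on the arrays that admitted it. It supports nothing by itself.

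The rest of the MAP kinase pathway was read from lists chosen with earlier results of these data known. Over the mean of the 5 LPS times, where 62% of all genes passed (27.3% higher and 34.7% lower), 2 of 6 other tested family members rose and 1 fell, among them Dusp3 (-0.87 ± 0.10), a small phosphatase of ERK and JNK, and Dusp11 (0.43 ± 0.08), which acts on RNA. Of 13 MAP3 kinases and their activators 7 rose and 3 fell, led by Map3k8 (2.50 ± 0.10), the kinase that couples TLR4 to ERK. Of 5 MAP2 kinases 2 rose and 2 fell, with the ERK activator Map2k1 at 0.93 ± 0.07. Of 5 MAP kinases 1 rose and 2 fell, with Mapk13, a p38 isoform, at -1.06 ± 0.23. Of 5 MAPK-activated kinases Mapkapk2, which stabilises cytokine mRNAs, rose by 0.90 ± 0.07 and 3 fell, with Rps6ka3 at -1.33 ± 0.10. Among 10 tested other inhibitors of the pathway 3 rose and 1 fell, and the related ERK inhibitors Spred1 (1.16 ± 0.07) and Spred2 (-0.82 ± 0.12) moved apart. Of 19 early genes 6 rose and 9 fell, with Fos at -2.37 ± 0.11. Of the cytokine and related transcripts 11 of 12 rose, such as Il6 (6.46 ± 0.12), and the other fell.

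Between conditions fewer genes passed over the whole array too, 13.6% with EGTA and 29.7% in Cd14-/- cells. With EGTA, 0 of 6 other family members and 0 of 5 MAP2 kinases passed in limma (2 and 1 had an unadjusted p under 0.05), and 1 gene each passed among 5 MAP kinases (the p38 gene Mapk14, 0.49 ± 0.10), 13 MAP3 kinases and activators (Map3k14, 0.35 ± 0.08) and 5 MAPK-activated kinases (Mknk1, 0.38 ± 0.09), all higher. Among 10 other inhibitors Spry2 (-0.59 ± 0.12) and Errfi1 (-0.58 ± 0.16) were lower. Of 19 early genes 1 was higher and 4 lower, with Atf3 at -0.81 ± 0.07, and 6 of 12 cytokine transcripts were lower, with Tnf at -0.85 ± 0.15. In Cd14-/- cells Mapk13 was higher by 1.35 ± 0.22 and the JNK gene Mapk8 lower by 0.39 ± 0.11 among 5 MAP kinases. There Map3k8 was lower by 0.39 ± 0.09 and Map3k14 higher by 0.47 ± 0.08 among 13. Of 5 MAP2 kinases 1 was lower, of 5 MAPK-activated kinases 0 passed in limma (0 at an unadjusted p under 0.05), of 10 other inhibitors 1 was higher and 1 lower, and of 19 early genes 1 was higher and 2 lower. The phosphatase-like Styx was the only one of 6 other family members to pass (0.27 ± 0.07), and 4 of 12 cytokine transcripts were lower, with Il10 at -1.05 ± 0.24.

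The genes most like each member in profile were ranked by the mean absolute difference between centred log2 profiles over the 18 arrays. For Dusp2 the nearest was Peli1, a ubiquitin ligase of TLR signalling, at 0.22, followed by Hivep3 (0.31) and Cpeb4 (0.35), where the median over all genes was 0.91. For Dusp14 they were Rhou (0.23), Ptch1 (0.31) and Mpp5 (0.36), with a median of 0.71. For Dusp6 the nearest genes, Hic1 (0.42), Tmem51 (0.44) and Zfp53 (0.45), stayed farther away, against a median of 0.85. Dusp16 lay nearest to Nck1 (0.19), Ppp1r15a (0.22) and Mapkapk2 (0.22), Dusp1 to Slf2 (0.23), and Dusp10 to Homer1 (0.30). The medians over all genes were 0.50 for Dusp16, 0.54 for Dusp1 and 0.59 for Dusp10. Among the members themselves the closest pair was Dusp1 and Dusp6 at 0.45, followed by Dusp14 and Dusp16 at 0.52, and the farthest was Dusp2 and Dusp6 at 1.45. The distance of 0.45 lay little below the median for Dusp1, and that of 0.52 lay above the median for Dusp16. Both were below the medians for Dusp6 and Dusp14. These are descriptions, since genes that share arrays also share their errors.

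**Figure D4:**
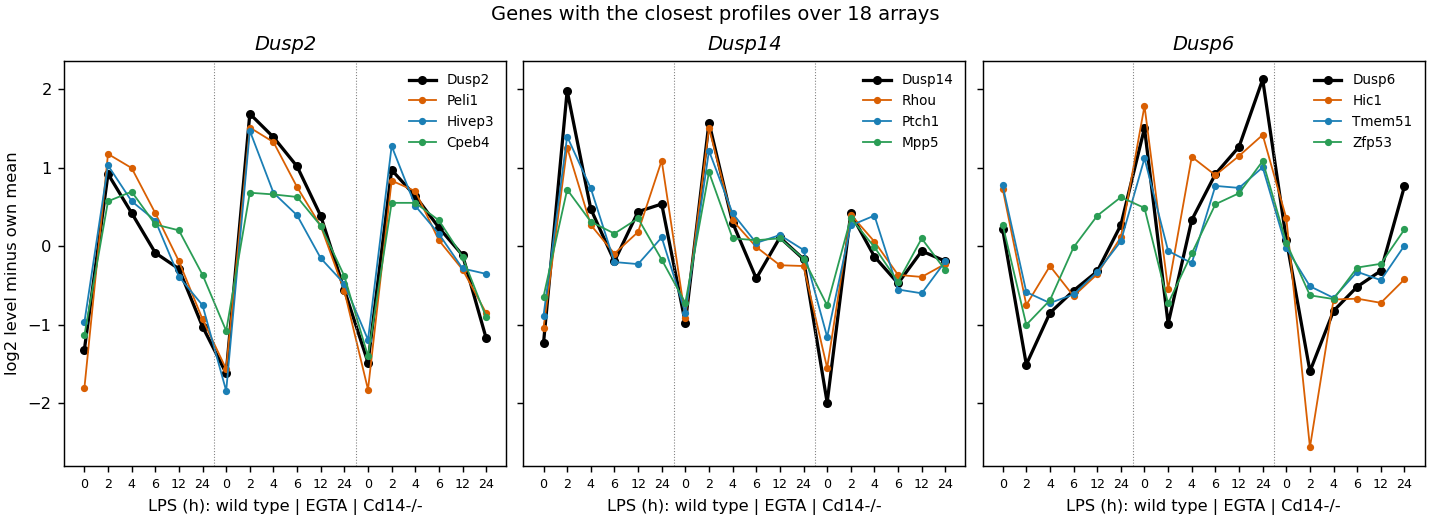
Log2 level minus the gene's own mean on the 18 arrays, in the order wild type, EGTA and Cd14-/- with LPS times of 0 to 24 h in each, for Dusp2, Dusp14 and Dusp6 (black) and the 3 genes with the smallest mean absolute difference from each (colours). Peli1 stays within 0.22 of Dusp2 on average, while the 3 genes nearest to Dusp6 stay below the height of its peak with EGTA at 24 h.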

How the data were processed

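RNA of each sample was labelled as biotinylated cRNA and hybridised to 1 array, per the labels' protocols. The values the authors deposited are linear intensity values, 1 per probe set, made with MAS5 per the submitters' processing notes. Neither its version nor its scaling target is stated there. Of 22690 probe sets, 20393 were annotated to 1 gene, 691 to several and 1606 to none. Here values were taken as log2(intensity + 16), quantile-normalised over the 18 arrays, and read from 1 probe set per gene. Testing required a level over the array median on 2 or more fitted arrays, which left 7056 genes over 18 arrays and 6929 over the 15 LPS arrays.

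LPS changes and steps between times were fitted over 18 arrays with the condition as a block (10 residual degrees of freedom), and condition differences over the 15 LPS arrays with LPS time as a block (8), in R 4.3.3 with limma 3.58.1 (eBayes with an intensity trend). LPS arrays were paired by LPS time, which the labels state. Interactions had 6 (early against late) and 8 (induction) residual degrees of freedom, and in the latter a lone unstimulated array was taken to vary as LPS arrays do. Adjusted p-values are Benjamini-Hochberg at 0.05. The steps were tested on simulated data.

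The members, lists and rule for named genes were chosen with earlier results of these data known. That rule takes all members, Cd14, genes of each list with the smallest p, and the 3 nearest profiles of members whose level ranged over at least 2. Markers outside it, Itgax, Apoe and Cd163, were picked after their values were seen. Alternatives were the scaling, the added constant, the filter, the variance trend, the probe set, the block and arrays left out. Identical values were found in none of the 153 array pairs.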

Additional observations from a re-analysis of the deposited data

Results flagged for a closer look

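Of 30 groups of 5 LPS values (levels in a condition, or differences between conditions, for 6 genes), 4 held a value far from the others, and chance flags about 1 group in 20. The values of a group come from different LPS times, so a value that stands apart need not be an error. The Dusp1 level with EGTA was lowest at 2 h, at 10.07, where the next value was 11.67. The difference of Dusp1 between Cd14-/- and wild type cells was highest at 2 h, at 1.20, with the nearest other value at -0.01. For Dusp6 the same difference was highest at 24 h, at 0.50, with the nearest at 0.05. For Dusp16 the difference between EGTA and wild type was lowest at 12 h, at -0.20, with the nearest at 0.34.

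The effects of both inhibited conditions against wild type differed from each other, by the test of the difference itself in limma, for Dusp6 (-1.23, Cd14-/- minus EGTA), Dusp2 (-0.67) and Dusp1 (-0.59). The LPS response of Dusp2 differed between EGTA and wild type cells by 1.10 (limma, adjusted p = 0.03). This value rests on 1 unstimulated array per condition, of which that of EGTA stood apart, and it did not pass without scaling (adjusted p = 0.216) or with 64 added (adjusted p = 0.0547).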

How the results depend on the processing

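Over the alternatives, 2392 of the values of single genes kept their direction and side of the threshold, 98 lost the call, 29 gained it and 2 reversed, both with the other Dusp10 probe set (-0.015 for 4 h minus unstimulated, -0.21 for 4 h minus 2 h). The pairing by LPS time carried the condition calls: with no replicate block, the members that passed fell from 4 to 0 for EGTA, from 2 to 0 for Cd14-/- cells and from 3 to 0 between these conditions, since the time course then entered the error. With no condition block the LPS mean kept 3 members and lost Dusp6 (adjusted p = 0.178). Testing only genes above the median on all fitted arrays left 2 members for LPS, of which 1 passed (also 1 for 24 h minus 2 h), 3 for the conditions, of which 1 passed in each, and 0 that passed for induction. With the other Dusp10 probe set, which is too dim for the filter and was fitted with no filter, 2 members passed with EGTA (Dusp10 and, through the missing filter, Dusp1 were lost) and 1 in Cd14-/- cells. Leaving out 1 array, or the arrays of 1 time, gave 2 to 5 members with EGTA, 1 to 3 in Cd14-/- cells, and 2 to 3 between these conditions. The lowest counts with EGTA and in Cd14-/- cells came without the wild type arrays at 4 or 6 h or all arrays of those times, when Dusp10 no longer met the filter. For induction 0 members passed without scaling and with 64 added. The calls of Dusp2, Dusp6 and Dusp14 between conditions were lost only without the time block or where the stricter filter left the gene out. The alternatives for steps between times, and those without the 12 and 24 h arrays, were chosen after seeing the data. Interactions were not run with arrays left out. With 1 array per condition and time, the precision is limited by their number.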
